A study of Mus musculus with 25 samples.

Results

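This account concerns 10 genes of MHC class II antigen presentation in mouse white adipose tissue, out of 54752 genes counted. The genes were taken by symbol: the class II chain genes *H2-Aa*, *H2-Ab1* and *H2-Eb1*, the peptide-loading genes *H2-DMa*, *H2-DMb1* and *H2-DMb2*, the invariant chain *Cd74*, the class II transactivator *Ciita*, and the co-stimulators *Cd80* and *Cd86*. All 10 were found. RNA was sequenced from epididymal (eWAT) and inguinal (iWAT) fat of male C57BL/6N mice in 6 groups. In eWAT these were 4 wild type mice on a normal diet (ND), 5 wild type mice on a high-fat diet (HFD) and 5 *Acod1*-/- mice on HFD. In iWAT the same groups held 3, 5 and 3 mice. The HFD supplied 60% of calories as fat and began at 5 weeks of age. It lasted 16 weeks, except that the labels give 17 and 18 weeks for libraries 2 and 3 of the iWAT *Acod1*-/- group. The *Acod1*-/- mice lacked the itaconate-producing enzyme in the whole body, and no ND-fed *Acod1*-/- group was sequenced. Each library is bulk tissue, so fewer cells of a type and less RNA per cell cannot be told apart in any value below.

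MHC class II molecules present peptides from engulfed material to CD4+ T cells, and are made mainly by dendritic cells, macrophages and B cells. An alpha chain (*H2-Aa*) pairs with a beta chain (*H2-Ab1*), while *H2-Eb1* encodes the beta chain of the second class II molecule. The invariant chain guards the groove until the DM heterodimer, made of *H2-DMa* with *H2-DMb1* or *H2-DMb2*, exchanges its remnant for a peptide. CIITA switches these genes on through proteins bound at the X and Y boxes of their promoters, and CD80 and CD86 give the second signal to the T cell through CD28. In fat, macrophages gather during obesity, and the inguinal depot encloses a lymph node.

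The class II chain and DM genes lie together on chromosome 17 (GRCm38): *H2-DMa* at 34119541 to 34139101, *H2-DMb2* at 34143307 to 34151555, *H2-DMb1* at 34153072 to 34160230, *H2-Ab1* at 34257689 to 34269419, *H2-Aa* at 34282744 to 34287823 and *H2-Eb1* at 34305867 to 34316674. *H2-Aa* is on the minus strand and the others are on the plus strand. *Ciita* (10480059 to 10528418, plus), *Cd86* (36603869 to 36666081, minus) and *Cd80* (38455561 to 38496335, plus) are on chromosome 16. Libraries were directional, but whether counting used the strand is not given in the sources used here, so *H2-DMa*, *H2-Eb1* and *Ciita* may share reads with genes that overlap them on the other strand (*Brd2*, *Gm20513* and *Dexi*).

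RefSeq promoters in GRCm38.p6, from 250 bases before to 50 after a start, were found for 6 of the 10 genes (*H2-Aa*, *H2-Eb1*, *H2-DMa*, *H2-DMb1*, *H2-DMb2* and *Cd80*). They were searched on both strands for an X box core, GNAAC, followed after 20 to 40 bases by a Y box core, ATTGG. The pair stood in the promoters of *H2-Aa*, *H2-Eb1* and *H2-DMb1*, with 28, 27 and 28 bases between the cores, and in 3.41% of all 32851 promoters of that length. It was in neither promoter listed for *H2-DMa*, nor in those of *H2-DMb2* and *Cd80*. The stretches with both cores are shown for *H2-Aa* (chr17:34287847-34287924, minus strand) and *H2-Eb1* (chr17:34305756-34305832, plus strand) as the pair that CIITA's partners are known to read. Capitals mark the cores, and both stretches lie upstream of the annotated transcripts.
H2-Aa: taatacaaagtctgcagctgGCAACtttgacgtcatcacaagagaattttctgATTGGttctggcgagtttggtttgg
H2-Eb1: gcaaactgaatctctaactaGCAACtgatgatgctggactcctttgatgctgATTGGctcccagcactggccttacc

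The DM beta chain genes are near copies whose levels went different ways in these data, so their first 30 bases from the X core position are set side by side, for *H2-DMb1* at chr17:34153097-34153126, in the first exon of its GENCODE vM21 transcript, and for *H2-DMb2* at chr17:34145126-34145155, in an intron of 1 of its transcripts. Capitals mark bases that differ.
H2-DMb1: GtaacTgatgatgctaggctGaTtcactCa
H2-DMb2: TtaacCgatgatgctaggctAaGtcactTa

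From the first base of the X core to the last base of the Y core, 38 bases in *H2-DMb1*, the aligned *H2-DMb2* promoter differed at 5 positions. Counted from 1 at the first base of the core and written from *H2-DMb1* to *H2-DMb2*, these were G1T, T6C, G21A, T23G and C29T. The first of them takes the letters out of the pattern searched for, which says only that these letters are not in this window. Of the 50-base words in *H2-DMb2* transcripts, 21.2% also occurred in those of *H2-DMb1*, and only uniquely aligned reads were counted.

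Per library, 31.41 M to 52.34 M (mega) reads were counted on genes. Reads of *Acod1* itself numbered 0 to 9 per library, and at most 2 in *Acod1*-/- mice, too few to check a genotype. File headers place the libraries in 2 sequencing series. The second holds every ND-fed library and, per depot, 1 wild type and 1 *Acod1*-/- library from HFD-fed mice. The 3 iWAT libraries of ND-fed mice stood apart from all others: the summed level of 10 B cell markers was 891 to 1295 CPM (counts for each M of counted reads) there and at most 111 elsewhere, that of 8 T cell markers 302 to 478 against at most 80.6, and that of 5 lymph node stroma genes 174 to 309 against at most 48.1. Of the remaining libraries, iWAT library 5 of HFD-fed wild type mice was highest for B cell and T cell markers (111 and 80.6 CPM), and eWAT library 4 of *Acod1*-/- mice came next for B cells (60.7 CPM). Each of these markers was counted in every group except *Glycam1*, which was at 0 in all libraries of 3 groups (both HFD groups of eWAT and the *Acod1*-/- group of iWAT).

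Per length of transcript, as FPKM (fragments per kilobase, scaled to depth), the genes kept one order at the top in all 6 groups: *Cd74*, then *H2-Eb1*, *H2-Aa* and *H2-Ab1*. *Cd74* (chromosome 18, 60803848 to 60812652, plus strand) averaged 193 FPKM ± 52.4 (SD, n = 4) in eWAT of ND-fed mice and 683 ± 119 (n = 3) in iWAT of ND-fed mice. *Ciita* was among the scarcest at 0.607 to 6.83 FPKM as group means, and *Cd80* ran from 0.197 to 1.35. The highest gene was between 487 and 869 times the lowest within a group. *H2-DMa* and *H2-DMb1* sat between these. The place of *H2-DMb2* changed with the group: it stood above *H2-DMa* and *H2-DMb1* in iWAT of ND-fed mice (41.6, 33.7 and 30.8 FPKM), while in the other 5 groups it was at 0.354 to 1.43 FPKM and below both. Which gene of a pair was scarcer at the bottom, *Cd80*, *Ciita* or *H2-DMb2*, differed from group to group.

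**Figure D1:**
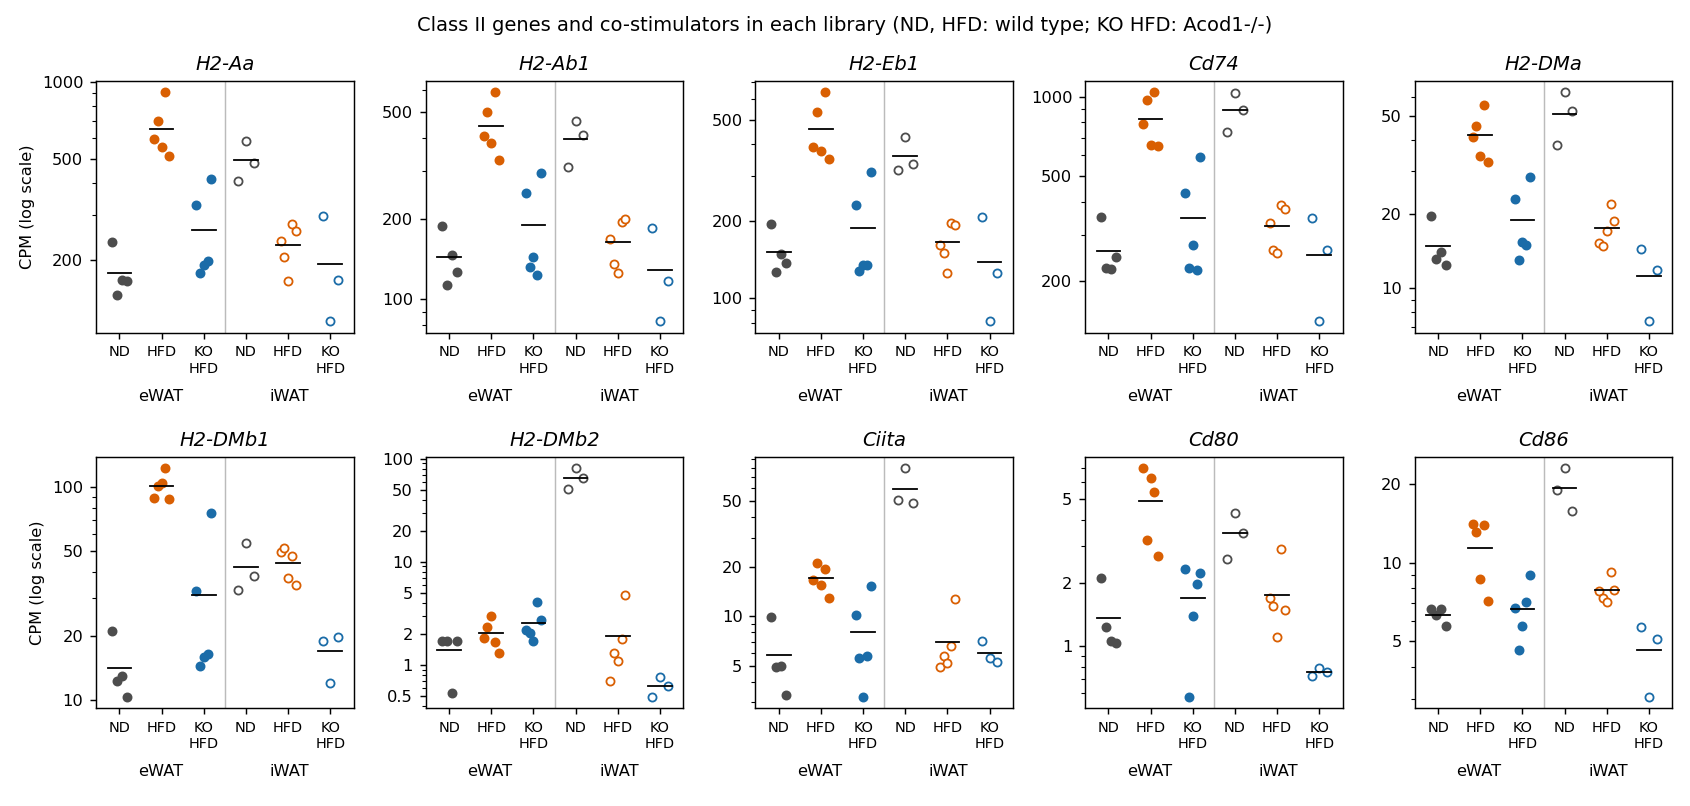
CPM of the 10 genes on log axes, 1 point per library, with the group mean as a line; filled points are eWAT and open points iWAT. In eWAT the HFD-fed wild type group is the highest for 9 genes, while in iWAT the ND-fed group is the highest for 9 genes, and *H2-DMb2* is at 50.8 CPM or more only in the ND-fed iWAT libraries.

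The first comparison asks what HFD did to class II expression in eWAT of wild type mice. The chain genes rose about 3-fold. *H2-Aa* was at 236, 147, 168 and 167 CPM in the 4 ND-fed mice and at 598, 701, 553, 906 and 512 CPM in the 5 HFD-fed mice. Every HFD-fed mouse lay above every ND-fed mouse, with means of 179 ± 38.7 and 654 ± 158 CPM (SD) and a log2 fold change of 1.87 ± 0.28 (SE; edgeR, adjusted p = 0.000455). *H2-Ab1* (113 to 188 CPM on ND, 329.8 to 589.7 on HFD) rose by 1.62 ± 0.28 and *H2-Eb1* (126 to 196, then 352 to 639) by 1.60 ± 0.29 on the log2 scale. *Cd74* was at 349, 224, 223 and 247 CPM on ND and at 788, 972, 654, 1037 and 652 CPM on HFD, again without overlap (log2 fold change 1.66 ± 0.30, adjusted p = 0.00117).

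The genes of peptide loading separated. *H2-DMb1* was at 21.02, 12.3, 12.9 and 10.3 CPM on ND and at 88.8, 101, 105, 123 and 88.2 CPM on HFD. That is 7.16 times the ND mean, the largest rise of the 10 genes (log2 fold change 2.84 ± 0.46, adjusted p = 0.000724). *H2-DMa*, which encodes the partner chain, went from 12.5 to 19.7 CPM up to 32.5 to 55.5 CPM (1.49 ± 0.25, adjusted p = 0.00076). *H2-DMb2* was at 1.70, 1.71, 0.529 and 1.69 CPM on ND and at 1.82, 2.35, 2.99, 1.65 and 1.31 CPM on HFD. The groups overlapped and the difference did not pass (0.52 ± 0.40, adjusted p = 0.297), so it was the exception among the 10.

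*Ciita* was at 9.92, 4.92, 4.96 and 3.35 CPM on ND and at 16.5, 21.1, 15.6, 19.4 and 12.9 CPM on HFD (1.56 ± 0.41, adjusted p = 0.00898), with no overlap between the groups. Of the co-stimulators, *Cd80* was at 2.11, 1.24, 1.06 and 1.03 CPM on ND and at 7.01, 3.18, 6.28, 5.40 and 2.67 CPM on HFD (1.85 ± 0.44, adjusted p = 0.00503). *Cd86* rose less, from 5.70 to 6.67 CPM up to 7.12 to 14 CPM (0.85 ± 0.24, adjusted p = 0.0122). In all, 9 of 10 genes were called higher, against 24.8% of the 14936 genes tested called higher and 51.8% in either direction. Their median log2 fold change was 1.61, beside -0.038 over all genes tested, and 9 of 10 had groups that did not overlap, against 17.2% of genes. *Cd80* and *Cd86* belong to an inflammation list that the study drew from these samples, so their direction is not independent evidence. Diet is nearly the same split as sequencing series here. With the series as a term 9 genes were still called higher, with *H2-DMb1* at 3.77 in place of 2.84, and the 1 HFD-fed wild type library of the second series lay above all 4 ND-fed libraries for 9 of 10 genes.

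The genotype comparison asks whether *Acod1* loss changed these levels under HFD. In each depot it shares the HFD-fed wild type libraries with the diet comparison, with opposite sign, so these comparisons are not independent. In eWAT 9 of 10 genes were lower in *Acod1*-/- mice, against 10.8% of the 14936 genes tested called lower and 19.9% in either direction. *Cd80* and *Cd86* are among the 9. The study's inflammation list from these samples holds both and required lower levels in *Acod1*-/- mice. Their direction here is therefore not independent evidence. *H2-Aa* was at 329, 179, 192, 198 and 416 CPM in the 5 *Acod1*-/- mice, all below the lowest wild type mouse, a log2 fold change of -1.32 ± 0.25 (adjusted p = 0.0111). *Cd74* was at 433, 224, 273, 220.0 and 591 CPM, also all below the wild type mice (-1.24 ± 0.27, adjusted p = 0.0152). *H2-Ab1* (123 to 296 CPM), *H2-Eb1* (128 to 312) and *H2-DMa* (13.1 to 28.4) showed the same separation, with log2 fold changes of -1.23, -1.28 and -1.14.

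*H2-DMb1* was at 32.6, 14.5, 16.0, 16.5 and 75.2 CPM in *Acod1*-/- mice (-1.71 ± 0.41, adjusted p = 0.0194). Library 5 was far above the others and yet below the wild type group. It is the only eWAT *Acod1*-/- library of the second series, and without it the log2 fold change was -2.35. *H2-DMb2* was at 2.19, 2.03, 1.69, 4.04 and 2.72 CPM and did not pass, with a value of the other sign (0.32 ± 0.37, adjusted p = 0.604). Its highest library, 4, is the one with 60.7 CPM of B cell markers, whose part in the level was not tested.

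*Ciita* was at 10.2, 5.55, 3.24, 5.72 and 15.2 CPM in *Acod1*-/- mice, overlapping with the wild type group through library 5. It was called lower (-1.10 ± 0.38, adjusted p = 0.0717), but the call was lost in 6 of the 14 fits that left out 1 library (adjusted p up to 0.150), namely those without wild type HFD libraries 1, 2 or 4 or without *Acod1*-/- libraries 2, 3 or 4. *Cd80* was at 2.34, 0.575, 1.39, 1.98 and 2.24 CPM, every value under the wild type group (-1.52 ± 0.40, adjusted p = 0.0286). *Cd86* was at 6.69, 4.63, 5.72, 7.08 and 9.003 CPM and overlapped with it (-0.78 ± 0.22, adjusted p = 0.0377). The median over the 10 genes was -1.23, beside 0.044 over all genes tested, and 7 of 10 had groups that did not overlap, against 4.34% of genes. Within the first series alone, with 4 libraries a group, 9 of 10 genes had *Acod1*-/- values all below the wild type values. In the second series, with 1 library a group, 7 of 10 were lower, and *Ciita*, *Cd86* and *H2-DMb2* were higher, in the *Acod1*-/- library.

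Set against ND-fed wild type mice, HFD-fed *Acod1*-/- mice differed in 1 of the 10 genes, beside 26.5% of genes tested in either direction and 13.5% called higher. That gene was *H2-DMb1* (1.13 ± 0.43, adjusted p = 0.0852), and without *Acod1*-/- library 5 its log2 fold change was 0.49 and did not pass (adjusted p = 0.201). The call was also lost without any 1 of ND-fed libraries 2, 3 and 4, HFD-fed wild type libraries 2 and 3, and *Acod1*-/- library 1. The other 9 genes had log2 differences between 0.07 (*Cd86*) and 0.84 (*H2-DMb2*), and the groups overlapped for all 10 genes, while 8.19% of genes lay wholly higher and 9.26% wholly lower. A p that misses the threshold does not show equal levels: for *H2-Aa* the difference was 0.55 ± 0.26.

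Macrophage markers moved with these results. The summed level of 12 such markers in eWAT was 644 to 1069 CPM on ND, 1648 to 5428 CPM in HFD-fed wild type mice and 582 to 1682 CPM in *Acod1*-/- mice, with no marker at 0 in any group. On HFD 11 of 12 were called higher and 1 lower, and in *Acod1*-/- mice 11 of 12 were called lower than in wild type mice, beside 24.8% and 10.8% of all genes. Several of them, *Adgre1* and *Cd68* among them, are on the study's own list from these samples. The summed level of *H2-Aa*, *H2-Ab1*, *H2-Eb1* and *Cd74* was 0.810 to 0.9996 times the macrophage sum in ND-fed mice, 0.402 to 1.12 times in HFD-fed wild type mice and 0.733 to 1.23 times in *Acod1*-/- mice, so these ratios overlapped. *Cd74* CPM per *Cd68* CPM, a macrophage lysosomal protein, was 9.01 to 16.2 on ND and 1.24 to 3.73 in HFD-fed wild type mice, and 4.47 to 12.5 in *Acod1*-/- mice, wholly above the latter. On HFD *Cd68* rose the most of the 12 macrophage markers (log2 fold change 3.89, beside a median of 2.29 for the 12), and *Cd74* rose by 1.66. Dendritic cell markers, a list of 10, summed to 68.9 to 127.7 CPM on ND, 164.7 to 382.5 CPM in HFD-fed wild type mice and 56.99 to 175.9 CPM in *Acod1*-/- mice. Of the 9 tested in eWAT, 4 were called higher and 1 lower on HFD, beside 24.8% of all genes called higher. In *Acod1*-/- mice 2 of the 9 were called lower, beside 10.8% of all genes. The part of macrophage or dendritic cell number in the class II values was not tested.

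**Figure D2:**
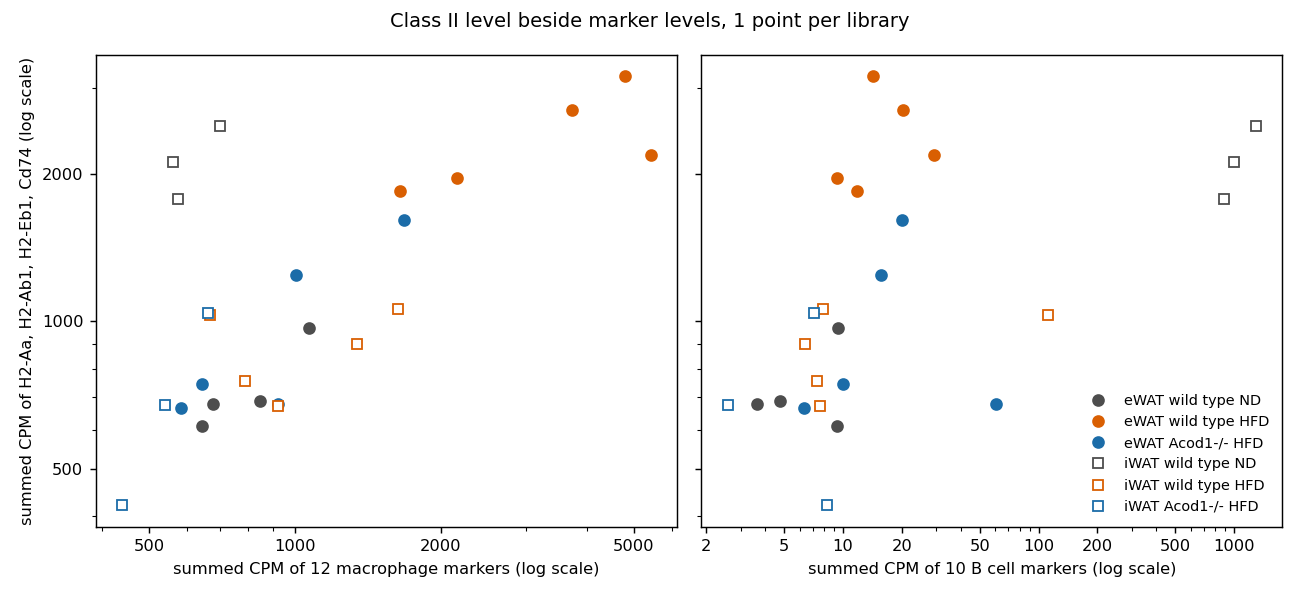
Summed CPM of *H2-Aa*, *H2-Ab1*, *H2-Eb1* and *Cd74* against the summed CPM of 12 macrophage markers (left) and of 10 B cell markers (right), both axes log, 1 point per library. The eWAT libraries lie along a band on the left, the 3 ND-fed iWAT libraries lie above it at 560.5 to 700 CPM of macrophage markers, and on the right those 3 stand alone at 891 CPM or more of B cell markers.

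In iWAT the diet comparison went the other way. *H2-Aa* was at 409.8, 586 and 479.6 CPM in the 3 ND-fed mice and at 237, 207, 166, 278 and 262 CPM in the 5 HFD-fed wild type mice. The groups did not overlap, and the log2 fold change was -1.06 ± 0.27 (adjusted p = 0.00874). *Cd74* was at 737, 1035 and 887.9 CPM on ND and at 333, 262, 254, 390.0 and 376 CPM on HFD (-1.43 ± 0.26, adjusted p = 0.00152). *H2-Ab1* (312 to 462 CPM, then 126 to 199) and *H2-Eb1* (319 to 429, then 125 to 197) fell by 1.23 and 1.09 on the log2 scale, also without overlap.

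*H2-DMb2* was the most changed. It was at 50.8, 80.8 and 65.1 CPM on ND and at 0.700, 1.30, 1.09, 1.79 and 4.74 CPM on HFD, a 34.1-fold difference of the means (log2 fold change -5.04 ± 0.51, adjusted p = 9.46e-05). The highest HFD-fed library, 5, was the one with 111 CPM of B cell markers, and without it the log2 fold change was -5.72. *H2-DMb1* was at 33.0, 54.8 and 38.2 CPM on ND and at 49.8, 51.6, 37.5, 47.3 and 34.6 CPM on HFD. These overlapped almost wholly and did not differ past the threshold (0.10 ± 0.22, adjusted p = 0.727). *H2-DMa* fell from 38.1 to 62.5 CPM down to 14.9 to 22.1 CPM (-1.50 ± 0.22, adjusted p = 0.000556).

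The share of *H2-DMb2* in the FPKM of both DM beta chain genes was taken for each library. It was 56.1% to 59.7% in the 3 ND-fed iWAT libraries. In the other groups it was 3.43% to 12.5% (eWAT, ND), 1.16% to 2.41% (eWAT, wild type HFD), 3.04% to 17.5% (eWAT, *Acod1*-/-), 1.21% to 10.6% (iWAT, wild type HFD) and 2.20% to 5.17% (iWAT, *Acod1*-/-). The highest value in eWAT belonged to *Acod1*-/- library 4 and the highest in HFD-fed iWAT to wild type library 5, those with raised B cell markers in their depots. Other eWAT libraries did not keep to this order. ND-fed library 4 had a share of 12.5% with 3.64 CPM of B cell markers, and HFD-fed wild type library 1 had 1.75% with 29.1 CPM. This share was chosen after its values were seen and was not tested.

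**Figure D3:**
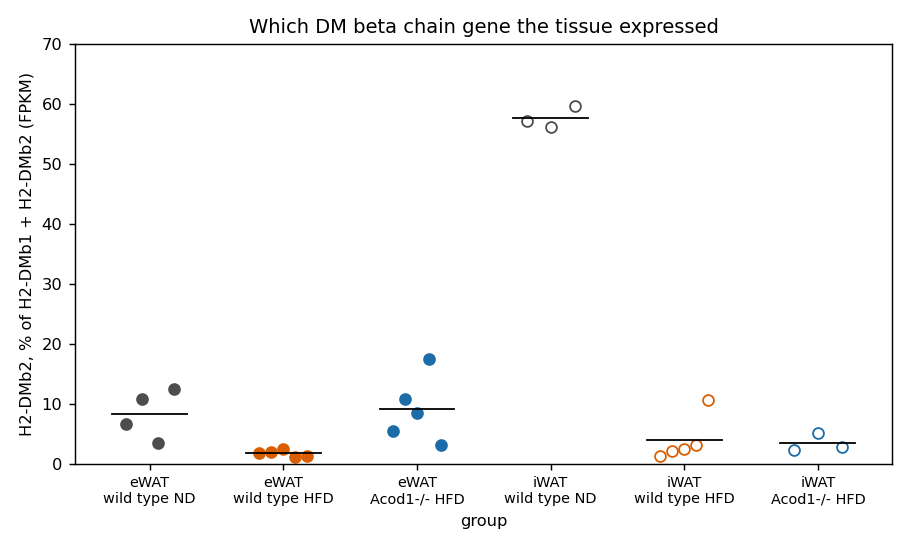
Share of *H2-DMb2* in the summed FPKM of *H2-DMb1* and *H2-DMb2* (per cent, axis from 0), 1 point per library, with the group mean as a line. The 3 ND-fed iWAT libraries lie at 56.1% to 59.7%, and no other library is above 17.5%.

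*Ciita* also fell. It was at 51.0, 79.4 and 48.7 CPM on ND and at 4.92, 5.71, 5.18, 6.65 and 12.7 CPM on HFD, an 8.49-fold difference of the means (-3.05 ± 0.31, adjusted p = 9.41e-05), with library 5 again the highest on HFD. *Cd86* was at 19.01, 23.0 and 15.8 CPM, then at 7.07 to 9.23 CPM (-1.26 ± 0.21, adjusted p = 0.00102). *Cd80*, at 2.60, 4.28 and 3.45 CPM, then at 1.70, 1.55, 1.11, 2.90 and 1.48 CPM, overlapped and passed narrowly (-0.95 ± 0.34, adjusted p = 0.044). That call was lost without ND-fed library 2 (adjusted p = 0.173), without a filter on low counts (0.105) and with the series as a term (0.144). In all 9 of 10 genes were called lower on HFD, against 24.2% of the 14801 genes tested called lower and 50.1% in either direction, with a median of -1.25 beside 0.004 over all genes. For 8 of 10 the groups did not overlap, against 24.1% of genes.

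Lymphocyte and macrophage markers moved in opposite directions in this comparison. All 10 B cell markers (median log2 fold change -5.56), all 8 T cell markers (-3.90) and the 4 lymph node stroma genes tested (-4.88) were called lower on HFD, while 9 of 12 macrophage markers were called higher (median 1.33), beside 25.9% of all genes called higher. Macrophage markers summed to 560.5 to 700 CPM on ND and to 670 to 1634 CPM on HFD. Of 10 dendritic cell markers 5 were called lower and 1 higher (median -1.66), beside 24.2% and 25.9% of all genes. Their sum was 133.7 to 198.6 CPM on ND and 81.93 to 193.9 CPM on HFD, so the groups overlapped. The class II sum was 3.10 to 3.77 times the macrophage sum on ND and 0.648 to 1.54 times on HFD, without overlap. All 3 ND-fed libraries carry the lymphocyte markers, so no fit without them could be made, and their part in the fall of the class II genes was not tested. The 1 HFD-fed wild type library of the second series lay below all 3 ND-fed libraries for 9 of 10 genes. It is also the one with the most B cell markers among HFD-fed mice.

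Genotype made no called difference in iWAT. None of the 10 genes passed, in a comparison where 0.0% of the 14801 genes did by edgeR, while 2468 genes had an unadjusted p under 0.05. All 10 log2 fold changes were below 0, from -0.26 (*Ciita*) to -1.67 (*H2-DMb2*), and 5 of the 10 genes had an unadjusted p under 0.05. *H2-DMb1* had the smallest p. It was at 18.9, 12.1 and 19.7 CPM in *Acod1*-/- mice, all below the lowest HFD-fed wild type library at 34.6 CPM (-1.40 ± 0.23, adjusted p = 0.133). Leaving out wild type library 5 or *Acod1*-/- library 3 brought it past the threshold (adjusted p = 0.0447 and 0.0163), and the latter also *Cd86* (0.0690). DESeq2's Wald test called 4 members lower (*H2-DMb1*, *H2-DMb2*, *Cd80* and *Cd86*), among 1072 genes. Groups did not overlap for 4 of the 10 genes, against 4.59% of genes: *H2-DMb1*, *H2-DMa* (7.36 to 14.5 CPM), *Cd80* (0.720, 0.789 and 0.752 CPM) and *Cd86* (5.68, 3.06 and 5.12 CPM). The chain genes overlapped, as with *H2-Aa* at 298, 116 and 168 CPM (-0.27 ± 0.27), and the macrophage sum was 441 to 663 CPM. Library 2 was the lowest *Acod1*-/- library for the chain genes, and without it the *H2-Aa* and *H2-Eb1* differences were 0.014 and 0.006.

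Against ND-fed wild type mice, all 10 genes were called lower in iWAT of HFD-fed *Acod1*-/- mice, beside 16.1% of genes called lower and 34.6% in either direction. The groups did not overlap for any of the 10, against 19.1% of genes lying wholly lower. The log2 fold changes ran from -1.30 (*H2-DMb1*) to -6.70 (*H2-DMb2*, at 0.488, 0.758 and 0.630 CPM), with a median of -1.93 beside 0.047 over all genes. The ND-fed libraries with lymphocyte markers serve here too, and this comparison shares its groups with the other 2 of the depot.

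**Figure D4:**
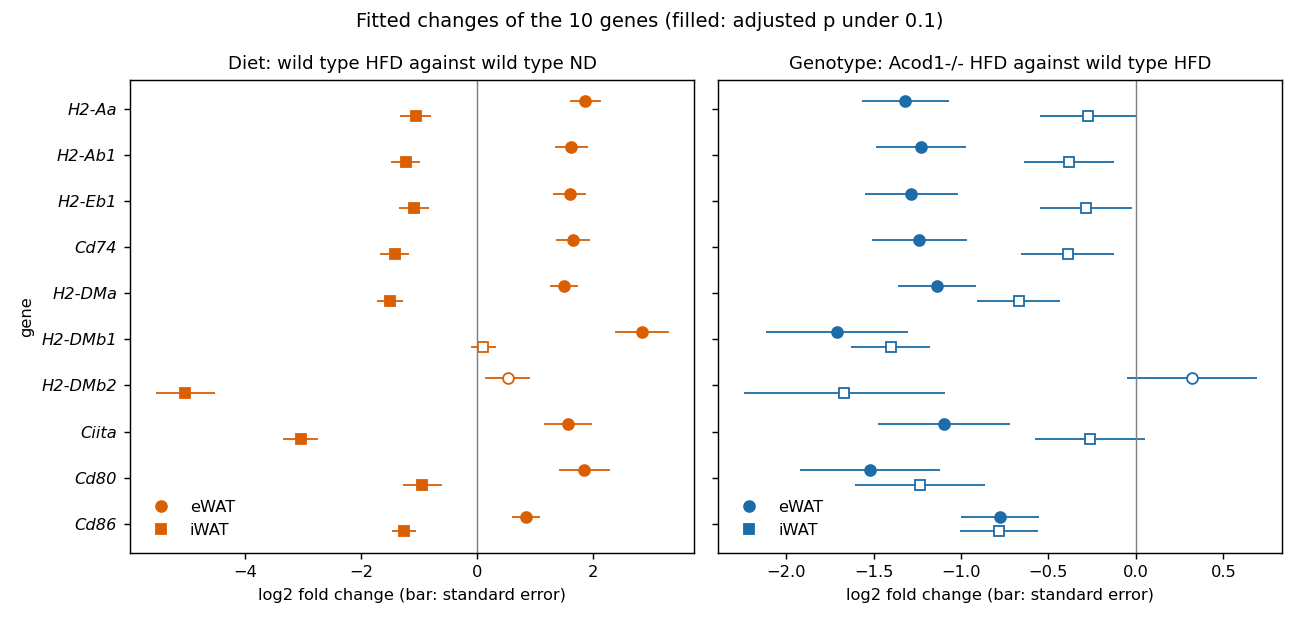
Fitted log2 fold changes of the 10 genes with their standard errors for diet (left) and genotype (right), with circles for eWAT and squares for iWAT, filled where the adjusted p is under 0.1. For diet the eWAT points lie to the right of 0 and the iWAT points to the left except *H2-DMb1*, and for genotype the eWAT points lie to the left of 0 except *H2-DMb2*, while no iWAT point is filled.

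Between depots, ND-fed wild type mice had less of all 10 genes in eWAT than in iWAT, beside 14.2% of the 15034 genes called lower, and 31.7% in either direction, in a fit of all 25 libraries. The differences ran from -1.25 ± 0.31 for *H2-Eb1* to -3.37 ± 0.43 for *Ciita* and -5.53 ± 0.54 for *H2-DMb2* on the log2 scale, with no overlap for any of the 10, against 16.9% of genes. Without ND-fed iWAT library 2 the *Cd80* call was lost (adjusted p = 0.114). The response to diet differed between depots for all 10 genes, against 29.0% of genes in either direction, and was the higher in eWAT for all 10. The interaction, eWAT minus iWAT, was smallest for *Cd86* (2.14 ± 0.32, adjusted p = 7.7e-05), 2.96 ± 0.40 for *H2-Aa* and largest for *H2-DMb2* (5.60 ± 0.65, adjusted p = 4.69e-06). Both results rest on the same 3 ND-fed iWAT libraries. The response to genotype was not shown to differ between depots for any of the 10 genes by edgeR, where 0.00665% of genes passed. Of the members 5 had an unadjusted p under 0.05, *H2-DMb2* (1.95 ± 0.65) with the smallest, as had 1524 of the 15034 genes, and DESeq2 called 0. Without eWAT *Acod1*-/- library 5, *H2-Aa* and *H2-Eb1* were called (adjusted p = 0.0974 and 0.0989).

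Other genes of class II loading and transport were followed as a list. Of 10 accessory genes 7 were measured well enough in eWAT: 6 were called higher on HFD and 6 lower in *Acod1*-/- than in wild type mice, beside 24.8% and 10.8% of all genes. Between *Acod1*-/- HFD-fed and ND-fed mice 0 of the 7 were called, beside 26.5% of all genes in either direction. The first by adjusted p were *Ifi30*, a lysosomal thiol reductase (log2 fold change 2.46 for diet and -1.82 for genotype), *Cd83* (2.53 and -2.14), and the proteases *Ctsl* (1.46 for diet) and *Lgmn* (-2.20 for genotype). *Cd83* is on the study's own list from these samples, so its direction is not independent evidence. In iWAT *H2-Ob* and *H2-Eb2*, a DO beta chain that restrains DM and a further class II beta chain, fell on HFD (log2 fold changes of -5.14 and -5.82), and *H2-Oa* had 0.328 to 3.24 CPM in HFD-fed wild type mice against 19.5 to 29.4 CPM on ND. *Ctsl* rose by 1.82 there. Of the 9 tested in iWAT, 6 fell and 2 rose on HFD, beside 24.2% and 25.9% of all genes. None was called for genotype, where 0.0% of all genes were called. The promoters of *H2-Oa*, *H2-Ob* and *H2-Eb2* each hold the X and Y core pair. *H2-Ea*, which C57BL/6 mice do not express, had no read in any of the 25 libraries, which allows up to 0.0955 CPM at the lowest depth.

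The list of factors that act on class II promoters held 7 genes (*Rfx5*, *Rfxap*, *Rfxank*, *Nfya*, *Nfyb*, *Nfyc* and *Creb1*). In eWAT 1 was called for diet (*Nfyb*, -0.30) and 1 for genotype (*Nfya*, -0.85), beside 51.8% and 19.9% of all genes in either direction. In iWAT 3 fell on HFD: *Rfx5* (-1.31), *Creb1* (-0.77) and *Nfya* (-1.03), beside 24.2% of all genes called lower. Of 8 tested genes of the interferon gamma axis, which induces *Ciita*, 4 rose and 2 fell on HFD in eWAT. Over all genes 24.8% were called higher there and 51.8% in either direction. For genotype in eWAT 2 of the 8 were called lower and 6 were not called, with a median of -0.19, beside 10.8% of all genes called lower. *Irf8*, a factor of macrophages, dendritic cells and B cells, went from 2.15 for diet to -1.57 for genotype, the lowest of the 8. *Ifng* itself was too low to test in either depot. In iWAT 6 of the 8 fell on HFD, with *Irf8* first (-1.73) and then *Irf1* (-0.70), beside the same 24.2%.

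Further co-stimulators were mostly scarce in eWAT, where 4 of 12 could be tested. All 4 rose on HFD, beside 24.8% of all genes (*Cd40* 2.24, *Cd28* 1.65, *Icosl* 0.54 and *Cd274* 0.58), and *Cd40* (-1.75) and *Icosl* (-0.70) were lower in *Acod1*-/- mice, beside 10.8% of all genes. *Cd40* is on the study's own list from these eWAT samples, so its direction there is not independent evidence. In iWAT 6 of 7 fell on HFD, beside 24.2% of all genes, with *Icosl* (-2.31) and *Cd40* (-2.38) first. Of the class I genes, which present peptides made inside the cell, 7 of 11 rose in eWAT on HFD with a median of 0.68, among them the immunoproteasome subunits *Psmb10* (1.35) and *Psmb8* (1.19) and the light chain *B2m* (1.03), and 8 of 11 were lower in *Acod1*-/- mice with a median of -0.41. The shares over all genes were the same 24.8% and 10.8%. In iWAT 6 of 11 fell and 2 rose on HFD, where 50.1% of all genes were called, with the peptide transporter *Tap1* first among those that fell (-1.48) and *B2m* among those that rose (0.86). No gene of these lists was called for genotype in iWAT, where 0.0% of all genes were called by edgeR.

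The order of mean CPM over the 6 groups differed among the genes. HFD-fed wild type eWAT led for *H2-Aa*, *H2-Ab1*, *H2-Eb1*, *H2-DMb1* and *Cd80*, and ND-fed wild type iWAT for *Cd74*, *H2-DMa*, *H2-DMb2*, *Ciita* and *Cd86*. For the chain genes, *Cd74*, *H2-DMa* and *Cd80* the other of these 2 groups came next and overlapped with the first, while for *H2-DMb1*, *H2-DMb2*, *Ciita* and *Cd86* the leading group lay wholly above the next. The lowest group was ND-fed eWAT for *H2-Aa*, *H2-DMb1* and *Ciita*, and HFD-fed *Acod1*-/- iWAT for the other 7. *Cd74* in that iWAT group was at 347, 141 and 263 CPM, overlapping with its neighbour in the order, ND-fed eWAT, and *Ciita* was at 7.10, 5.62 and 5.26 CPM. Of the 5 pairs of neighbours in each order, all overlapped for *H2-Aa*, 4 for most genes and 3 for *Cd86*. The highest group mean was 3.32 times the lowest for *H2-Eb1*, 10.3 times for *Ciita* and 104.8 times for *H2-DMb2*.

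Within a depot the chain genes ran closely together over its libraries, group differences included. The Pearson r of each of *H2-Aa*, *H2-Ab1*, *H2-Eb1* and *Cd74* with the mean log2 CPM of the other 3 was 0.992 to 0.996 over 14 eWAT libraries and 0.989 to 0.995 over 11 iWAT libraries. Against the mean of *H2-Aa*, *H2-Ab1*, *H2-Eb1* and *Cd74* together, *H2-DMb1* stood at r = 0.976 in eWAT and 0.547 in iWAT, and *H2-DMb2* at 0.174 and 0.875. *Ciita* stood at 0.937 and 0.898. Non-member genes were compared with the mean log2 CPM of *H2-Aa*, *H2-Ab1*, *H2-Eb1* and *Cd74*. The non-member genes most like it in eWAT were *Pltp* (r = 0.970), *Prrx1* (0.968), *Rcn3* (0.966), *Cpxm1* and *Lum* (both 0.965), of which *Prrx1* and *Lum* are known from fibroblasts. In iWAT they were *Abcg3* (0.982), *Spic* (0.979), *Il16* (0.976), *Ppp1r16b* (0.972) and *Calhm6* (0.970). By Spearman's rho none of the 5 eWAT genes and 1 of the 5 iWAT genes remained among the closest 5. The points share depth, group and tissue, and no test was made.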

How the data were processed

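The 10 genes and the lists were chosen with earlier results of these data known. RNA-seq counts came from 25 libraries, 1 per mouse and depot. The authors made directional mRNA libraries, removed adaptors with cutadapt, discarded reads under 18 bases and contaminants, and used STAR to align to GRCm38. The deposited counts are whole numbers of uniquely aligned reads per gene, and the deposited FPKM values, checked on the files, follow from counts, cDNA lengths and read totals within 0.0005. The counting program is not given in the sources used here. Reads of 5 uncounted classes stayed out of totals (no feature 6.41% to 11.9%, ambiguous 1.52% to 2.07%). Gene IDs were joined to GENCODE vM21 symbols (54723 of 54752). No library repeated another of its group (chi-square of at least 31.0 per degree of freedom).

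Per depot, genes averaging at least 1 CPM were TMM-normalized and fitted with 3 groups by edgeR 4.0.16's quasi-likelihood test in R 4.3.3 (limma 3.58.1). Depot contrasts and interactions used all 25 libraries. P-values were adjusted by Benjamini-Hochberg over every tested gene, with calls at under 0.1, the limit the study used. All 10 genes passed the filter in both depots, so the exact test planned for members under it was not needed. CPM values use TMM factors of all 25 libraries, and log2 CPM a prior count of 2. The fit was tested on simulated data with 200 genes changed by 1 on the log2 scale. It recovered 50.8% of them for eWAT diet, 54% for eWAT genotype, 49.5% for iWAT diet and 48.5% for iWAT genotype. False calls were 13.3%, 10.8%, 3.92% and 5.94% of all calls, in the same order. Named genes are the 10 members, up to 3 called genes with the smallest adjusted p per list and comparison, and the 5 genes most correlated with the class II mean per depot. Markers and other genes named beyond this were chosen after their values were seen. Whether both depots came from the same mice is not given. Alternatives were DESeq2 1.42.0's size factors and Wald test, other filters, an adjusted p under 0.05, the sequencing series as a term or 1 series only, a replicate block, fits of 2 groups, and each library left out. Python 3.11.15, numpy 2.4.6, pandas 2.3.3 and matplotlib 3.10.9 made tables and figures.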

Additional observations from a re-analysis of the deposited data

Results flagged for a closer look

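In 40 sets of 4 or 5 libraries (10 genes, 4 groups), 3 held a library far from the rest of its group, where chance alone gives about 1 in 20. The 10 genes share their libraries, so the sets are not independent, and the count of 3 was not tested against chance. *H2-DMb2* in ND-fed eWAT library 3 was at 0.529 CPM, with the other 3 at 1.69 to 1.71 CPM. In iWAT of HFD-fed wild type mice, library 5 was at 4.74 CPM for *H2-DMb2* and 12.7 CPM for *Ciita*, with the others at most at 1.79 and 6.65 CPM. That library has 111 CPM of B cell markers, whose part was not tested.

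The effect of diet differed between eWAT and iWAT for each of the 10 genes by the interaction term (eWAT minus iWAT, log2): *H2-Aa* 2.96, *H2-Ab1* 2.89, *H2-Eb1* 2.72, *H2-DMa* 3.02, *H2-DMb1* 2.77, *H2-DMb2* 5.60, *Cd74* 3.11, *Ciita* 4.65, *Cd80* 2.83 and *Cd86* 2.14. The 3 ND-fed iWAT libraries, with 891 to 1295 CPM of B cell markers, enter every one of these values.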

How the results depend on the processing

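Counts of called members stayed within 1.5 times for eWAT diet (8 to 9), eWAT genotype (8 to 9), iWAT diet (7 to 9), iWAT *Acod1*-/- HFD against ND (8 to 10), depot (8 to 10) and diet by depot (8 to 10), over every alternative and library left out. For eWAT *Acod1*-/- HFD against ND the count of 1 became 0 at an adjusted p under 0.05, without a filter, with the replicate block and with only the 2 groups, 2 by DESeq2's Wald test, and 0 to 1 with a library left out. For iWAT genotype 0 became 1 without a filter, with at least 1 CPM in every library and with series 1 alone, 4 by the Wald test, and 0 to 2 with a library left out: leaving out wild type HFD library 5 called *H2-DMb1*, at adjusted p = 0.0447, and leaving out *Acod1*-/- library 3 called *H2-DMb1* and *Cd86*. For genotype by depot 0 became 2 with the replicate block and 0 to 2 with a library left out, the 2 being *H2-Aa* and *H2-Eb1* without eWAT *Acod1*-/- library 5. The cause of each change was not tested. The core pair stood in 3 members' promoters at gaps of 15 to 45 bases too.

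Of 2191 gene values under alternatives, 22 lost a call, 15 gained one and 14 changed sign, none of the last being called. With libraries left out in turn, signs changed for *Cd86* in eWAT *Acod1*-/- HFD against ND (log2 range -0.078 to 0.175), *H2-DMb1* for iWAT diet (-0.055 to 0.329), *H2-Aa*, *H2-Eb1* and *Ciita* for iWAT genotype (-0.69 to 0.014, -0.67 to 0.006 and -0.37 to 0.073) and *Cd86* for genotype by depot (-0.26 to 0.133). *Ciita* for iWAT genotype was also at 0.175 with the replicate block and 0.186 with series 1 alone.

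Libraries share numbers across groups, but same-numbered libraries of a depot had deviations correlated at r from -0.333 to 0.355, and those of one group in both depots at -0.138 to 0.563. No pair of groups had every r above 0.1, so the numbers were not taken to pair mice, although 4 of 5 eWAT libraries of HFD-fed wild type and *Acod1*-/- mice were closest to their own number (at most 1 in each other pair of groups within a depot). With the replicate block the counts were 9 (eWAT diet), 9 (eWAT genotype), 9 (iWAT diet), 0 (iWAT genotype) and 10 (diet by depot). With the series term 1048 genes were called in eWAT *Acod1*-/- HFD against ND, and 3953 without it. Depth was not the limit for abundant members, while *Cd80* and *H2-DMb2* rested on as few as 15 and 19 counts.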
